A study of Mus musculus with 10 samples.

Results

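The genes described here were the transcriptional effectors of the Hippo pathway and a short list of their targets, measured by RNA sequencing in intestinal crypts of WT and Arid3a cKO mice. They were 10 of the 54838 genes listed for each animal, and were taken by name as the coactivators Yap1 and Wwtr1 (the gene of TAZ), the DNA-binding factors Tead1, Tead2, Tead3 and Tead4, the secreted targets Ctgf and Cyr61, and the targets Amotl2 and Ajuba, which encode junction scaffolds. Crypts were taken from the jejunum after the villi had been scraped away, and 1 library of polyadenylated RNA was made from each of 5 WT and 5 cKO animals. The cKO animals were VillinCre-ERT2+/-; Arid3a fl/fl, so that tamoxifen activated the Cre recombinase in Villin-positive epithelial cells. Animals of both genotypes were given tamoxifen for 3 days and were killed 1 month after the first injection. The alleles that the WT animals carried at the Cre transgene and at the floxed locus, and the age of the animals, are not given in the sources used here. The identifiers of the WT animals carry 1 prefix and those of the cKO animals another, so that genotype and whatever the prefix marks cannot be told apart.

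In the Hippo pathway, MST kinases activate LATS kinases, which phosphorylate YAP and TAZ and so keep them in the cytoplasm. YAP and TAZ that are not phosphorylated enter the nucleus, where they bind TEAD factors and raise the transcription of growth and matrix genes. In the intestinal epithelium the pathway is best known for its part in regeneration after injury. Because its main control acts on proteins, the mRNA level of an effector does not report its activity.

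Expected counts summed to between 27050455 and 28152743 in the WT libraries and to between 28314069 and 31053622 in the cKO libraries, so that 26 to 30 counts stood for 1 CPM, a count scaled to the size of its library. The targeted gene Arid3a held 55 to 81 counts in the WT libraries and 9 to 31 in the cKO libraries (log2 fold change -1.84, adjusted p 0.00204). The epithelial markers Epcam (1250 ± 81.4 CPM in WT and 1414 ± 28.0 in cKO, SD, n = 5 each) and Krt8 were abundant in every animal. Of the 14719 genes that passed the filter on low counts, 28.3% were called by the quasi-likelihood test of edgeR at a Benjamini-Hochberg adjusted p under 0.05, 2298 higher (15.6%) and 1869 lower (12.7%) in cKO. This split depended on the scaling, with 1541 higher and 4030 lower when libraries were scaled by their totals alone, and 1401 higher and 2748 lower on log2(TPM + 0.5). The enterocyte markers were higher in cKO for 8 of 8 genes, the Paneth markers lower for 5 of 6 and the stem cell markers lower for 4 of 6. In bulk RNA, fewer cells of a type and less RNA per cell cannot be told apart.

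Of the 10 Hippo genes, 8 passed the filter, and 4 of these were called in a background of 28.3% of genes. Wwtr1 (chr3:57455649-57575910), Tead2 (chr7:45215753-45233644) and Cyr61 (chr3:145646976-145649981, all on GRCm38) were lower in cKO, against 12.7% of all genes, and Amotl2 (chr9:102716672-102733418) was higher, against 15.6%. Yap1, Tead1, Tead3 and Ajuba did not pass the threshold, and Tead4 and Ctgf were too low to be tested. The fitted log2 fold change of cKO over WT, called the log2 ratio from here on, was negative for 7 of the 8 tested genes, with a median of -0.30, beside a median of -0.03 over all genes tested.

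**Figure D1:**
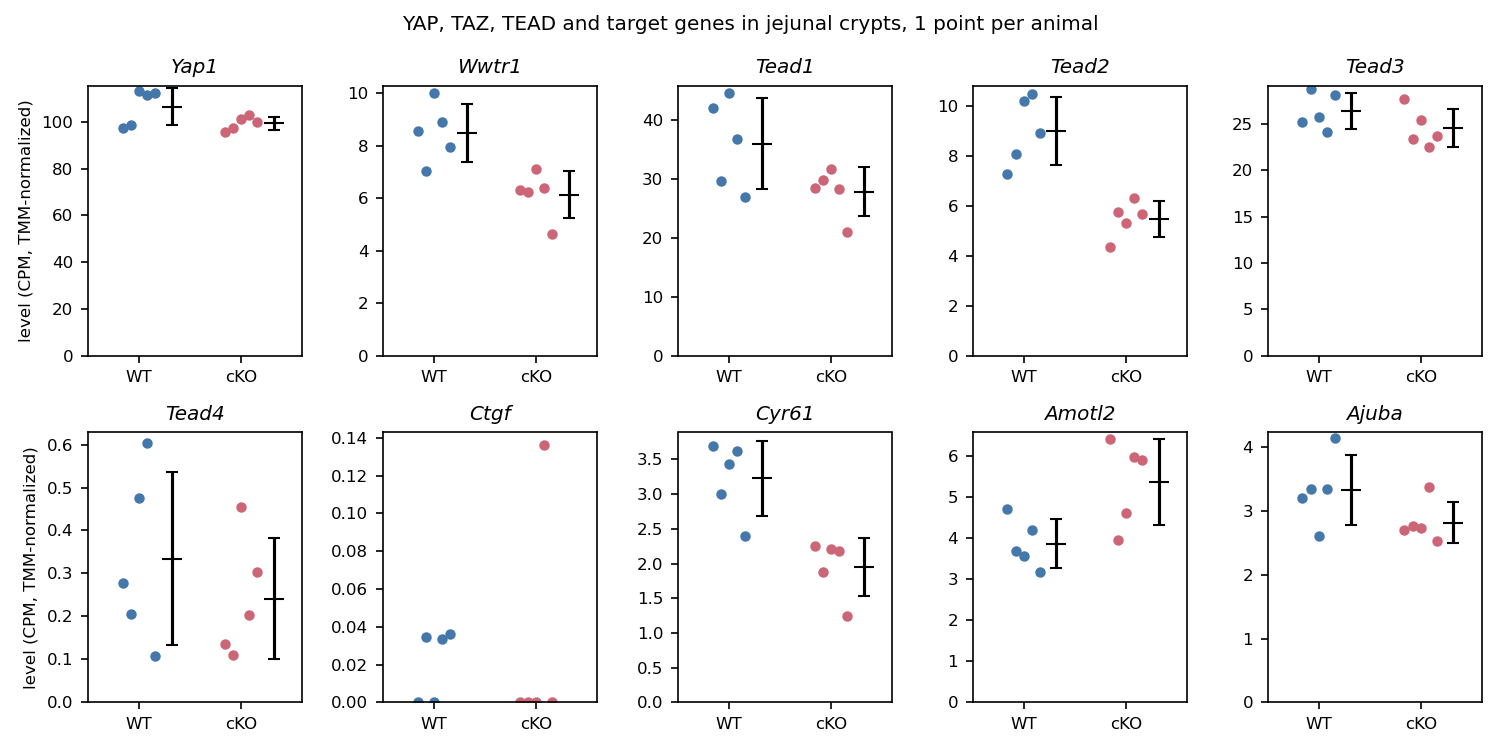
Level of each of the 10 genes in every animal, in CPM after TMM normalization on the y axis, with WT and cKO on the x axis. Points are animals in replicate order, the dash and bars give the mean and SD over 5 animals, and none are drawn for Ctgf, which was at 0 in most libraries. The cKO animals sit below all WT animals for Tead2 and Cyr61, and the genotypes overlap for the other genes.

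The promoters of these genes were examined first, since TEAD factors bind DNA and several of the genes are known targets. The RefSeq promoter table (GRCm38.p6) held 7 of the 10 genes, with 10 start sites. Tead1, Tead4 and Ctgf had no entry. The TEAD core motif, the letters GGAATG on either strand, was searched for in the 250 bases before each start. It occurred in 6 of these 7 genes, Tead2 being the exception, whereas 14.4% of 27025 genes in the table had at least 1 copy before a start. The AP-1 core, the letters TGANTCA on either strand, was in 0 of the 7 genes and in 7.82% of all genes. The members were chosen as pathway genes, so the count describes them and is not a test. Matching letters are not evidence of a bound site.

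The 3 windows below are shown because they hold a copy of the core and no annotated exon. They belong to Cyr61, which was lower in cKO, to Wwtr1, which was also lower, and to Ajuba, which was not called. Each is written 5′ to 3′ on the strand of the gene and ends at the base before the annotated start, with the TEAD core or its reverse complement in capitals. Cyr61 (chr3:145649986-145650235, minus strand, GRCm38.p6) has 1 copy at 103 to 98 bases before the start. Wwtr1 (chr3:57575911-57576160, minus strand) has 1 copy at 136 to 131 bases before its first start. Ajuba (chr14:54577662-54577911, minus strand) has 2 copies, at 186 to 181 and at 164 to 159 bases.
Cyr61: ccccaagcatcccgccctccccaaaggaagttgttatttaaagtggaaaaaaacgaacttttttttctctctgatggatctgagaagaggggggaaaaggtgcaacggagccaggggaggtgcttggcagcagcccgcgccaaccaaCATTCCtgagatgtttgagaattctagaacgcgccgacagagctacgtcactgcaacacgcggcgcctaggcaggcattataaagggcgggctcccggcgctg
Wwtr1: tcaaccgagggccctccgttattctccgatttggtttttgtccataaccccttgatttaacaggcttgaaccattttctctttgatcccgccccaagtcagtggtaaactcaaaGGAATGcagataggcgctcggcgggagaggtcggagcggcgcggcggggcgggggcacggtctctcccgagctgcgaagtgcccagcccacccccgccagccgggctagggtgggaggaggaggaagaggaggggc
Ajuba: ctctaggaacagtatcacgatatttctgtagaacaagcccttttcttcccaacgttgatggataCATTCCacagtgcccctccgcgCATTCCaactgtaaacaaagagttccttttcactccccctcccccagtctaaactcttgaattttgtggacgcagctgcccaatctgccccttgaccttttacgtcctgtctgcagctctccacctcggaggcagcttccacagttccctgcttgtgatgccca

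Of the remaining genes, Yap1 carried a copy at 141 to 136 bases and Amotl2 at 65 to 60 bases before the start, and Tead3 carried copies before 2 of its 3 starts. Tead2, which was lower in cKO, had no copy in its window, and Amotl2, which was higher, had 1.

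Yap1 encodes the main coactivator that LATS kinases restrain, and was the most abundant of the 10 genes. Its level in the WT animals was 97.5, 98.5, 113, 111.6 and 112.1 CPM (replicates 1 to 5), and in the cKO animals 95.8, 97.5, 101.1, 102.7 and 100.1 CPM. Replicates 1 and 2 of WT lay among the cKO animals, and replicates 3 to 5 lay above all of them. The means were 106.5 ± 7.84 and 99.4 ± 2.79 CPM (SD, n = 5 each), and the log2 ratio of -0.10 ± 0.06 (SE) was at adjusted p = 0.250 in edgeR. The reading for Yap1 depended on the scaling. Where the libraries were scaled by their totals alone the difference was -0.23 at an adjusted p of 0.0171, and limma on log2(TPM + 0.5) gave -0.28 at an adjusted p of 0.0233. Under those scalings the median over all genes was itself -0.16 and -0.12. The fitted effective length of Yap1 was 3375 to 3612 bases in WT and 3616 to 3890 in cKO, so its TPM also moves with that length. With the effective length as an offset in edgeR, its log2 ratio was -0.19 at an adjusted p of 0.0628.

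Wwtr1 encodes TAZ, the paralog of YAP that is regulated by the same kinases. It was measured at 8.56, 7.03, 10.01, 8.91 and 7.96 CPM in the WT animals and at 6.33, 6.23, 7.10, 6.39 and 4.66 CPM in the cKO animals. The highest cKO animal, replicate 3, lay just above the lowest WT animal, replicate 2, and all other cKO animals lay below WT. It fell on average from 8.50 ± 1.11 CPM in WT to 6.14 ± 0.899 in cKO (SD, n = 5 each), with a log2 ratio of -0.47 ± 0.13 (SE) at adjusted p = 0.0200 in edgeR. Without WT replicate 3 the change was -0.40 and the adjusted p 0.0525, and without WT replicates 3 and 4 together, the animals with the lowest summed enterocyte markers (2252 and 1402 CPM), it was -0.35 at an adjusted p of 0.135.

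Per length, Yap1 dominated the pair. In TPM, the deposited measure that is scaled by gene length and so allows levels of different genes to be compared, Yap1 averaged 39.2 ± 4.07 in WT and 32.1 ± 1.83 in cKO, and Wwtr1 2.39 ± 0.407 and 1.62 ± 0.259. Yap1 made up 94.3% ± 0.678 of their summed TPM in WT and 95.2% ± 0.582 in cKO, and the ranges of the genotypes overlapped (93.5 to 95.05% and 94.7 to 96.2%).

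The TEAD factors are the DNA-binding partners of YAP and TAZ, and share a DNA-binding domain named after them. Their levels per length differed widely, with Tead3 highest, Tead2 and Tead1 intermediate and Tead4 hardly detected. Of the 4, only Tead2 was called lower by the test, and no test of the difference between the TEAD genes was made.

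Tead2 was at 7.28, 8.06, 10.2, 10.5 and 8.91 CPM in the WT animals and at 4.35, 5.75, 5.32, 6.29 and 5.68 CPM in the cKO animals. Every cKO animal lay below every WT animal. Of all genes tested 19.6% showed no overlap between the genotypes, and 7.63% did so in this direction, and among the 8 tested Hippo genes Tead2 and Cyr61 did. It fell on average from 8.98 ± 1.37 CPM in WT to 5.48 ± 0.721 in cKO (SD, n = 5 each), with a log2 ratio of -0.71 ± 0.13 (SE), or 0.610-fold, at adjusted p = 0.00318 in edgeR. Tead2 passed the threshold in 22 of 22 alternatives, with log2 ratios from -0.94 to -0.56. Cd37, which encodes a leukocyte tetraspanin, overlaps Tead2 on the opposite strand by 13 bases. Cd37 had a log2 ratio of -1.09 at adjusted p = 0.160.

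Tead1 was at 42.1, 29.6, 44.6, 36.9 and 27.0 CPM in the WT animals and at 28.5, 29.9, 31.8, 28.4 and 21.0 CPM in the cKO animals. WT replicates 1, 3 and 4 lay above all cKO animals, and WT replicates 2 and 5 lay among them. The log2 ratio of -0.37 ± 0.15 (SE) was at adjusted p = 0.0826 in edgeR. The call for Tead1 was near the threshold, since it passed with library totals alone (-0.50, adjusted p 0.0291), with the effective gene length as an offset (-0.51, 0.0477), with the replicate number as a block (-0.36, 0.0323) and without WT replicate 5 (-0.44, 0.0371).

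Tead3, the TEAD gene with the highest level per length, was at 24.1 to 28.8 CPM in the WT animals (median 25.8) and at 22.5 to 27.6 CPM in the cKO animals (median 23.6). The genotypes overlapped, with a log2 ratio of -0.11 ± 0.08 (SE) at adjusted p = 0.336 in edgeR. It passed only when libraries were scaled by their totals alone (-0.23, adjusted p 0.0267). Tead4 held 3 to 18 counts in the WT libraries and 3 to 13 in the cKO libraries, and did not pass the filter. Without a filter its log2 ratio was -0.46 ± 0.51 (SE) at adjusted p = 0.581 in edgeR, an error too wide to tell a difference from none.

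In TPM, the 4 TEAD genes summed to 25.4 to 33.6 in the WT animals and to 20.1 to 23.5 in the cKO animals, with no overlap (29.1 ± 3.56 and 21.7 ± 1.34, SD, n = 5 each). Tead2 supplied 26.0% ± 3.13 of this sum in WT and 17.9% ± 1.93 in cKO, again with no overlap (22.1 to 30.5% and 16.0 to 21.0%). Tead3 supplied 52.7% ± 6.61 in WT and 63.3% ± 3.25 in cKO, and Tead1 20.6% ± 4.28 and 18.3% ± 2.75, and the genotypes overlapped for both. These shares are descriptions without a test, and TPM carries the downward shift of the median gene given above. RSEM estimated the effective length of Tead1 and Tead2 separately in each library, from 6536 to 8821 bases for Tead1 and from 1342 to 2004 bases for Tead2, so their TPM also moves with the mix of isoforms that was fitted.

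**Figure D2:**
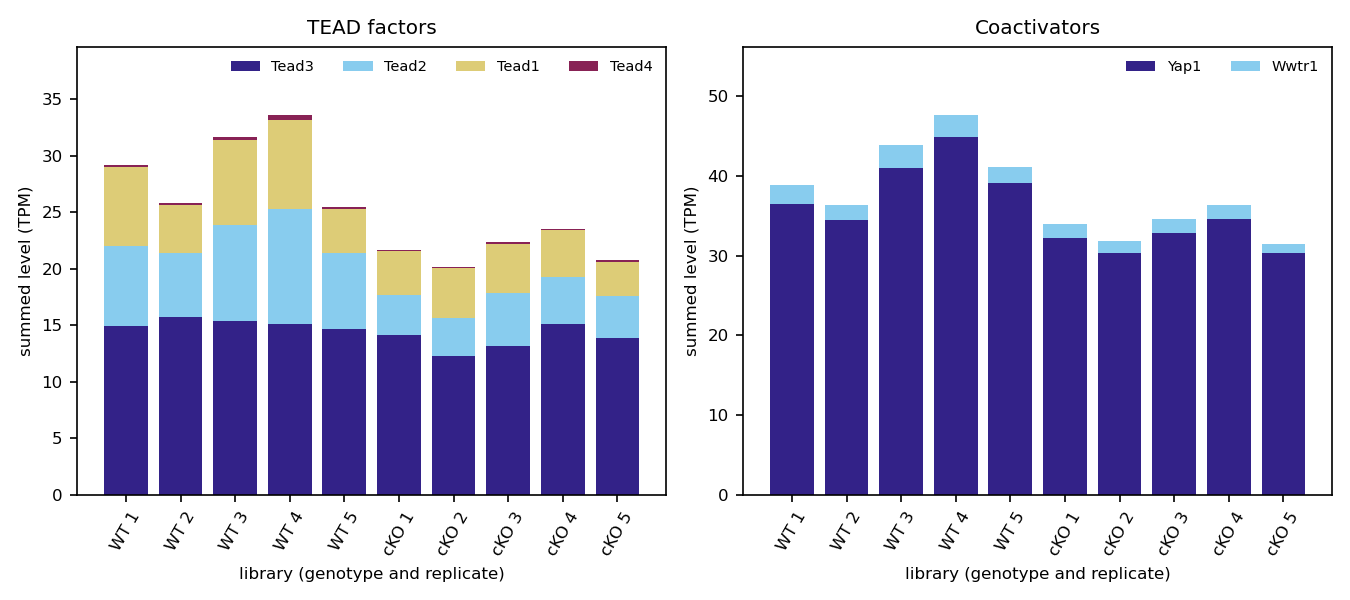
Deposited TPM of the 4 TEAD genes (left) and of Yap1 and Wwtr1 (right), stacked by library on the x axis (genotype and replicate). Tead3 forms the largest layer of each TEAD bar, and the summed TEAD TPM of 25.4 to 33.6 in WT lies above the 20.1 to 23.5 of cKO, and the Tead2 layer is smaller in every cKO animal than in any WT animal.

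Ctgf and Cyr61 encode secreted matricellular proteins of the CCN family and are the targets most often used as a readout of YAP activity. Ctgf was at or near the limit of detection. It held 0, 1, 0, 1 and 1 counts in the WT libraries and 0, 0, 0, 4 and 0 in the cKO libraries, where 3 counts, the limit that a count of 0 allows, correspond to 0.1005 to 0.1135 CPM. No fold change is given for it, since neither genotype rose above that limit except in 1 library.

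Cyr61 was low but measured in every animal, at 3.69, 3.00, 3.43, 3.62 and 2.40 CPM in WT (66 to 108 counts) and at 2.26, 1.88, 2.203, 2.18 and 1.25 CPM in cKO (33 to 67 counts). Every cKO animal lay below every WT animal, although the gap between the lowest WT animal, replicate 5, and the highest cKO animal, replicate 1, was small. It fell on average from 3.23 ± 0.535 CPM in WT to 1.95 ± 0.420 in cKO (SD, n = 5 each), with a log2 ratio of -0.72 ± 0.20 (SE), or 0.606-fold, at adjusted p = 0.0180 in edgeR. It was called in 21 of 22 alternatives and lost its call only when WT replicates 3 and 4 were left out together (-0.63, adjusted p 0.104).

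Amotl2 encodes an angiomotin that holds YAP at cell junctions, and is itself a YAP target. It was at 4.70, 3.69, 3.56, 4.19 and 3.16 CPM in the WT animals and at 6.40, 3.94, 4.62, 5.98 and 5.90 CPM in the cKO animals. Replicates 1, 4 and 5 of cKO lay above all WT animals, and replicates 2 and 3 lay among them. It rose on average from 3.86 ± 0.595 CPM in WT to 5.37 ± 1.04 in cKO (SD, n = 5 each), with a log2 ratio of 0.48 ± 0.16 (SE) at adjusted p = 0.0468 in edgeR. This call was lost in most alternatives. It held in 7 of 22 alternatives, and was lost with library totals alone (0.34, adjusted p 0.134), with the effective length as an offset (0.27, 0.306), on log2(TPM + 0.5) (0.14, 0.559), with the replicate number as a block (0.47, 0.0608) and without any 1 of WT replicates 2, 3, 4 and 5 or cKO replicates 1, 4 and 5 (0.41 to 0.51, adjusted p 0.0667 to 0.115). The deposited effective length of Amotl2 ranged from 2543 to 3782 bases, and its TPM averaged 1.74 ± 0.480 in WT and 1.96 ± 0.424 in cKO.

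Ajuba encodes a LIM protein that binds and inhibits LATS kinases. It was at 3.20, 3.34, 2.61, 3.35 and 4.15 CPM in the WT animals and at 2.70, 2.77, 2.73, 3.37 and 2.54 CPM in the cKO animals. The genotypes overlapped, with a log2 ratio of -0.24 ± 0.16 (SE) at adjusted p = 0.275 in edgeR, and no alternative called it. The opposite directions of the called targets Cyr61 and Amotl2 were kept in all 22 alternatives, although Amotl2 was called in few of them.

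In the order of WT levels per length, Yap1 (39.2 TPM) was followed by Tead3 (15.2), Tead2 (7.64), Tead1 (6.11), Wwtr1 (2.39), Cyr61 (2.19), Amotl2 (1.74), Ajuba (1.45), Tead4 (0.214) and Ctgf (0.012). Yap1 and Tead3 kept their places in every animal of both genotypes. Tead2 was above Tead1 in 5 of 5 WT animals, whereas Tead1, at 3.96 TPM, and Tead2, at 3.89, did not differ beyond their spread in cKO. Further down the WT order, Wwtr1 was above Cyr61 in 3 of 5 animals, Cyr61 above Amotl2 in 4 of 5 and Amotl2 above Ajuba in 3 of 5, so these neighbours were not separated beyond their spread. In cKO, Cyr61 lay above Amotl2 in 0 of 5 animals, with means of 1.23 and 1.96 TPM. Amotl2 and Wwtr1 overlapped there, at 1.48 to 2.59 and 1.19 to 1.84 TPM.

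**Figure D3:**
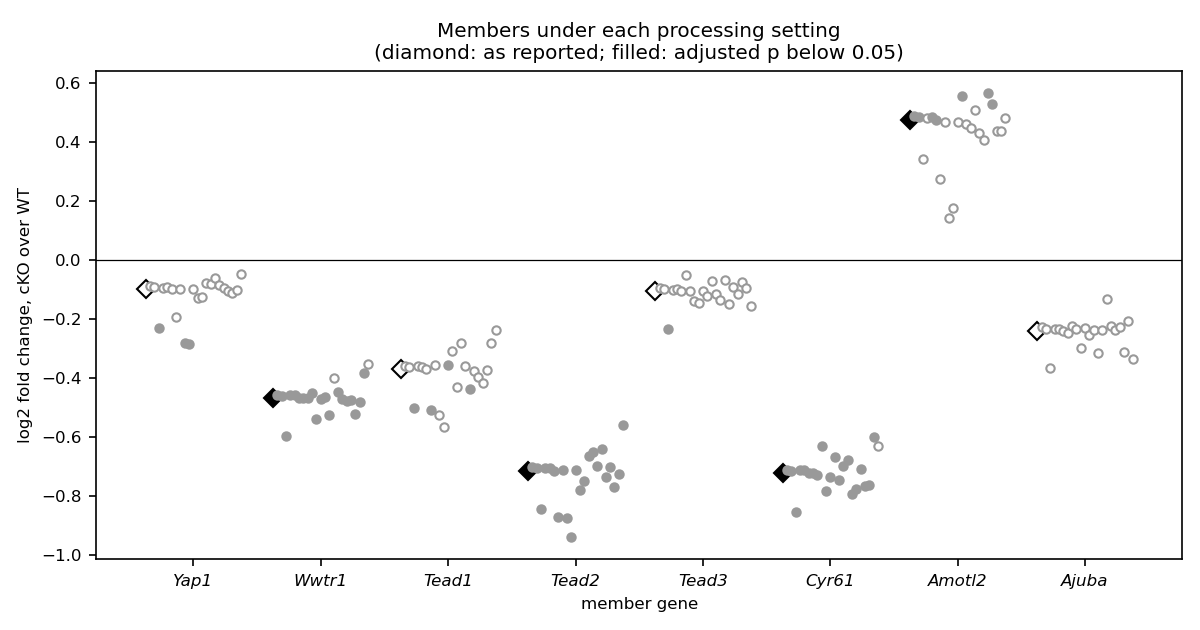
Log2 fold change (cKO over WT, y axis) of the 8 tested genes (x axis) as reported (black diamond) and under each of 22 alternatives (grey circles), filled where the adjusted p was below 0.05. No gene changes sign, Tead2 is filled throughout, and Amotl2 is open in most alternatives.

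The animals of 1 genotype also differed among themselves. After the genotype mean was removed, Wwtr1, Tead1 and Cyr61 varied together over the 10 libraries, with Pearson r of 0.86 for Wwtr1 and Tead1, 0.84 for Tead1 and Cyr61 and 0.79 for Wwtr1 and Cyr61. All 3 lay below their genotype mean in WT replicates 2 and 5 and in cKO replicate 5. Yap1 went instead with Tead2 (r = 0.80), and Tead2 ran against Tead3 (r = -0.67). Over all 28 pairs of the 8 genes the median r was -0.10. These values describe libraries that share a preparation and a cell composition, and carry no test.

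The same deviations were set beside the summed cell type markers. Each sum is in CPM and so weighted to its most abundant genes. The stem cell sum was mostly Olfm4, at a mean of 5778 CPM in WT, beside 953.8 for Slc12a2, 49.6 for Lgr5 and 30.6 for Ascl2. Stem cell markers had r of 0.75 with Wwtr1, 0.71 with Tead1, 0.63 with Tead2, 0.55 with Cyr61, 0.54 with Yap1, 0.00 with Amotl2, -0.11 with Ajuba and -0.72 with Tead3. Paneth markers had r of 0.78 with Wwtr1, 0.69 with Tead1, 0.48 with Cyr61, 0.27 with Yap1 and -0.04 with Tead2. Endothelial markers had r of 0.78 with Tead2, 0.51 with Tead1, 0.44 with Yap1, 0.39 with Wwtr1, 0.28 with Cyr61 and -0.87 with Tead3. Wwtr1, Tead1, Tead2, Cyr61 and Yap1, of which Tead1 and Yap1 were not called, thus had positive r with this stem cell sum. Enterocyte markers, which were higher, had r of -0.66 with Yap1, -0.65 with Wwtr1, -0.50 with Tead2, -0.46 with Tead1 and -0.34 with Cyr61. With Tead3, Ajuba and Amotl2 their r was 0.33, 0.22 and 0.14. Epithelial markers had r of 0.80 with Tead3, 0.40 with Ajuba, -0.77 with Tead1, -0.58 with Wwtr1 and -0.47 with Cyr61. With Tead2, Yap1 and Amotl2 their r was -0.44, -0.20 and -0.01. Smooth muscle markers, at very low levels, had r of 0.87 with Tead2 and 0.75 with Yap1. Their r was 0.09 with Amotl2, 0.00 with Ajuba, -0.02 with Wwtr1, -0.11 with Tead1, -0.26 with Cyr61 and -0.68 with Tead3. Fibroblast markers had r between -0.24 and 0.25 with the 8 genes. Goblet markers lay between -0.55 (Tead2) and 0.46 (Tead3), and immune markers between -0.41 (Tead3) and 0.64 (Amotl2).

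Among 10471 genes with a mean of at least 5 CPM, the deviations of Yap1 were most like those of Osgin2 (r = 0.96), Zfp664 (0.95) and Anxa10 (0.94). Those of Cyr61 were most like B4galnt3 (0.92), Nfkb2 (0.91) and Zfp687 (0.91). Among so many genes and only 10 libraries, high values can arise between unrelated genes, and no test was made.

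**Figure D4:**
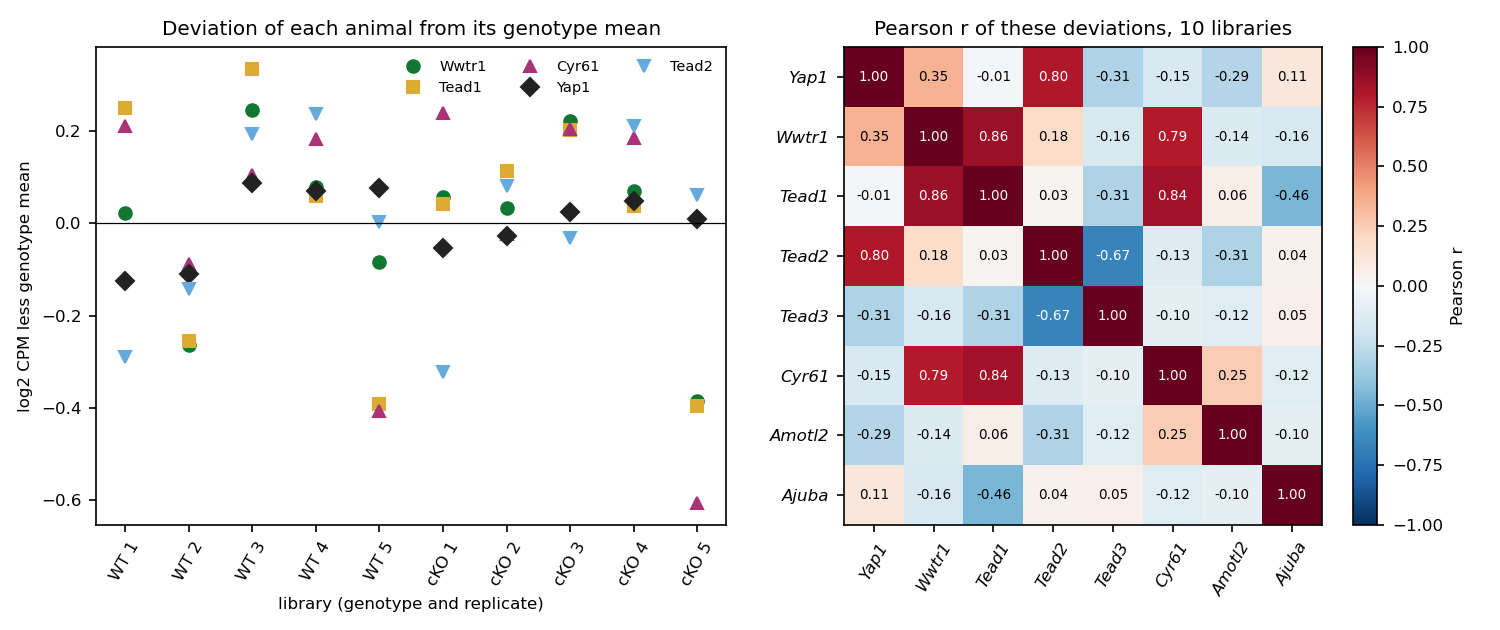
Left, deviation of 5 of the genes in each animal from the mean of its genotype, in log2 CPM on the y axis. Right, Pearson r of these deviations between the 8 tested genes over 10 libraries. Wwtr1, Tead1 and Cyr61 lie below 0 together in WT replicates 2 and 5 and cKO replicate 5, with r of 0.79 to 0.86.

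Stromal cells also transcribe Wwtr1, Tead genes and Cyr61, and their markers were therefore counted. Of the endothelial markers, 4 of 7 were tested and 1 was called, Pecam1, with a log2 ratio of -1.19 at adjusted p = 0.00984 in edgeR. The summed endothelial markers were 9.20 to 14.1 CPM in WT and 6.33 to 9.01 CPM in cKO, so they did not overlap and moved in the direction of Wwtr1, Tead2 and Cyr61. The endothelial markers Cdh5, Kdr and Tie1 were below the filter, and Tie1 had a median of 0 CPM in cKO. Of the smooth muscle markers, 4 of 6 were tested and Acta2 was called lower (-1.60, adjusted p 0.0455 in edgeR, a call that held in 10 of 21 alternatives), with sums of 2.26 to 5.56 CPM in WT and 1.42 to 3.91 in cKO. The fibroblast markers, 9 of 9 tested, gave 0 calls by edgeR, DESeq2 and limma-voom, with 0 genes at an unadjusted p under 0.05 in each, with sums of 20.9 to 102 CPM in WT and 19.4 to 158.8 in cKO. This rested on cKO replicate 4, without which the fibroblast sums in cKO were 19.4 to 40.0 CPM, 3 of the 9 markers (Col1a1, Col1a2 and Pdgfra) were called lower, and Col3a1 had a log2 ratio of -1.75 in place of -0.03. In the same fit Wwtr1 (-0.48, adjusted p 0.0356), Tead2 (-0.77, 0.00543) and Cyr61 (-0.76, 0.0279) were called. The immune markers, 9 of 9 tested, gave 0 calls by edgeR and 1 each by DESeq2 and limma-voom, with 2 genes at an unadjusted p under 0.05 in edgeR, with sums of 83.8 to 168 and 45.6 to 173 CPM. The part of these cells, and of the enterocyte, Paneth and stem cell markers above, in the changes of Wwtr1, Tead2 and Cyr61 was not tested.

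Of the other genes of the pathway, 59 of 70 listed genes were tested, in 6 groups, and 12 were higher and 4 lower in cKO, with a median log2 ratio of 0.01. Together that is 16 of 59 (27.1%), beside the background of 28.3%. The split by direction turned with the scaling, to 8 higher and 15 lower with library totals alone and to 6 higher and 10 lower on log2(TPM + 0.5). It also turned without cKO replicate 4, to 10 higher and 12 lower, and was 13 higher and 10 lower without WT replicate 2. With any other single animal left out, 10 to 13 genes were higher and 3 to 5 lower.

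The kinase cassette that phosphorylates YAP and TAZ had a median log2 ratio of 0.03. Of its 11 genes, 1 was called (9.09%, beside 28.3% of all genes). This was Mob1b, a coactivator of LATS. Mob1b was at 72.7 ± 5.21 CPM in WT and 90.8 ± 7.68 in cKO (log2 ratio 0.32, adjusted p 0.00844 in edgeR). It was not called with library totals alone (0.19, adjusted p 0.0812) or on log2(TPM + 0.5) (0.11, 0.392). The kinase gene Lats2, itself a YAP target, was at 1.89 ± 0.446 and 3.04 ± 1.19 CPM (log2 ratio 0.69, adjusted p 0.0774), and was called only without WT replicate 1 or without cKO replicate 3 (adjusted p 0.0494 and 0.0332). Stk3, an MST kinase, and Taok2, which acts above it, had log2 ratios of -0.22 and -0.15 with adjusted p of 0.0902 and 0.0988.

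Of 16 upstream and junction regulators, 14 were tested, with 2 higher and 2 lower (28.6%, beside 28.3% of all genes). Mpp5 (PALS1), a polarity protein of the Crumbs complex, rose from 37.1 ± 3.33 to 55.5 ± 4.05 CPM (log2 ratio 0.58, adjusted p 0.000799), and Wwc1 (KIBRA), which promotes LATS activity, from 63.5 ± 5.41 to 75.6 ± 4.74 CPM (0.25, 0.0230). Scrib, a basolateral polarity protein, fell from 81.8 ± 12.9 to 62.7 ± 3.30 CPM (-0.38, adjusted p 0.0123), and Wtip, a LIM protein related to Ajuba, from 4.35 ± 0.595 to 2.74 ± 0.351 CPM (-0.66, 0.00742). The genotypes did not overlap for these 4 genes, or 28.6% of the 14, beside 19.6% of all genes. Mpp5 and Wtip were called in 22 of 22 alternatives, Scrib in 21 and Wwc1 in 14. The call of Wwc1 was lost without WT replicate 3 or without cKO replicate 1, 4 or 5.

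The VGLL proteins compete with YAP for TEAD factors, and Vgll4 was the only one of 4 that was tested. It fell from 67.6 ± 4.04 to 58.8 ± 3.997 CPM (log2 ratio -0.20, adjusted p 0.0412), with overlap between the genotypes. The call held in 12 of 22 alternatives, and was lost without any 1 of WT replicates 1, 3 and 4 or cKO replicates 1, 2, 3 and 5.

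The further targets, 17 genes of a published YAP and TAZ signature that are not among the 10, had 13 tested and 4 called, all 4 higher (30.8% called, beside 28.3% of all genes). With library totals alone 3 were higher and 2 lower. Gadd45a, a stress-inducible growth arrest gene, rose from 21.2 ± 2.78 to 33.9 ± 2.30 CPM (log2 ratio 0.68 ± 0.09 SE, adjusted p 0.000800 in edgeR). Dock5, an exchange factor for Rac, rose from 54.8 ± 2.43 to 73.4 ± 5.22 CPM (0.42, 0.00139), and Nuak2, a kinase of the AMPK family, from 24.3 ± 3.27 to 35.5 ± 4.62 CPM (0.55, 0.00492). These 3 were called in 22 of 22 alternatives. They and Asap1 were higher in every cKO animal than in any WT animal, as were 12% of all genes tested. The fourth, Asap1, a GTPase-activating protein for Arf, rose from 7.13 ± 0.657 to 9.43 ± 1.05 CPM (0.40, 0.0152), but on log2(TPM + 0.5) its change was 0.05 at an adjusted p of 0.834. The median of the 13 genes was 0.30, and 8 had a positive and 5 a negative log2 ratio.

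**Figure D5:**
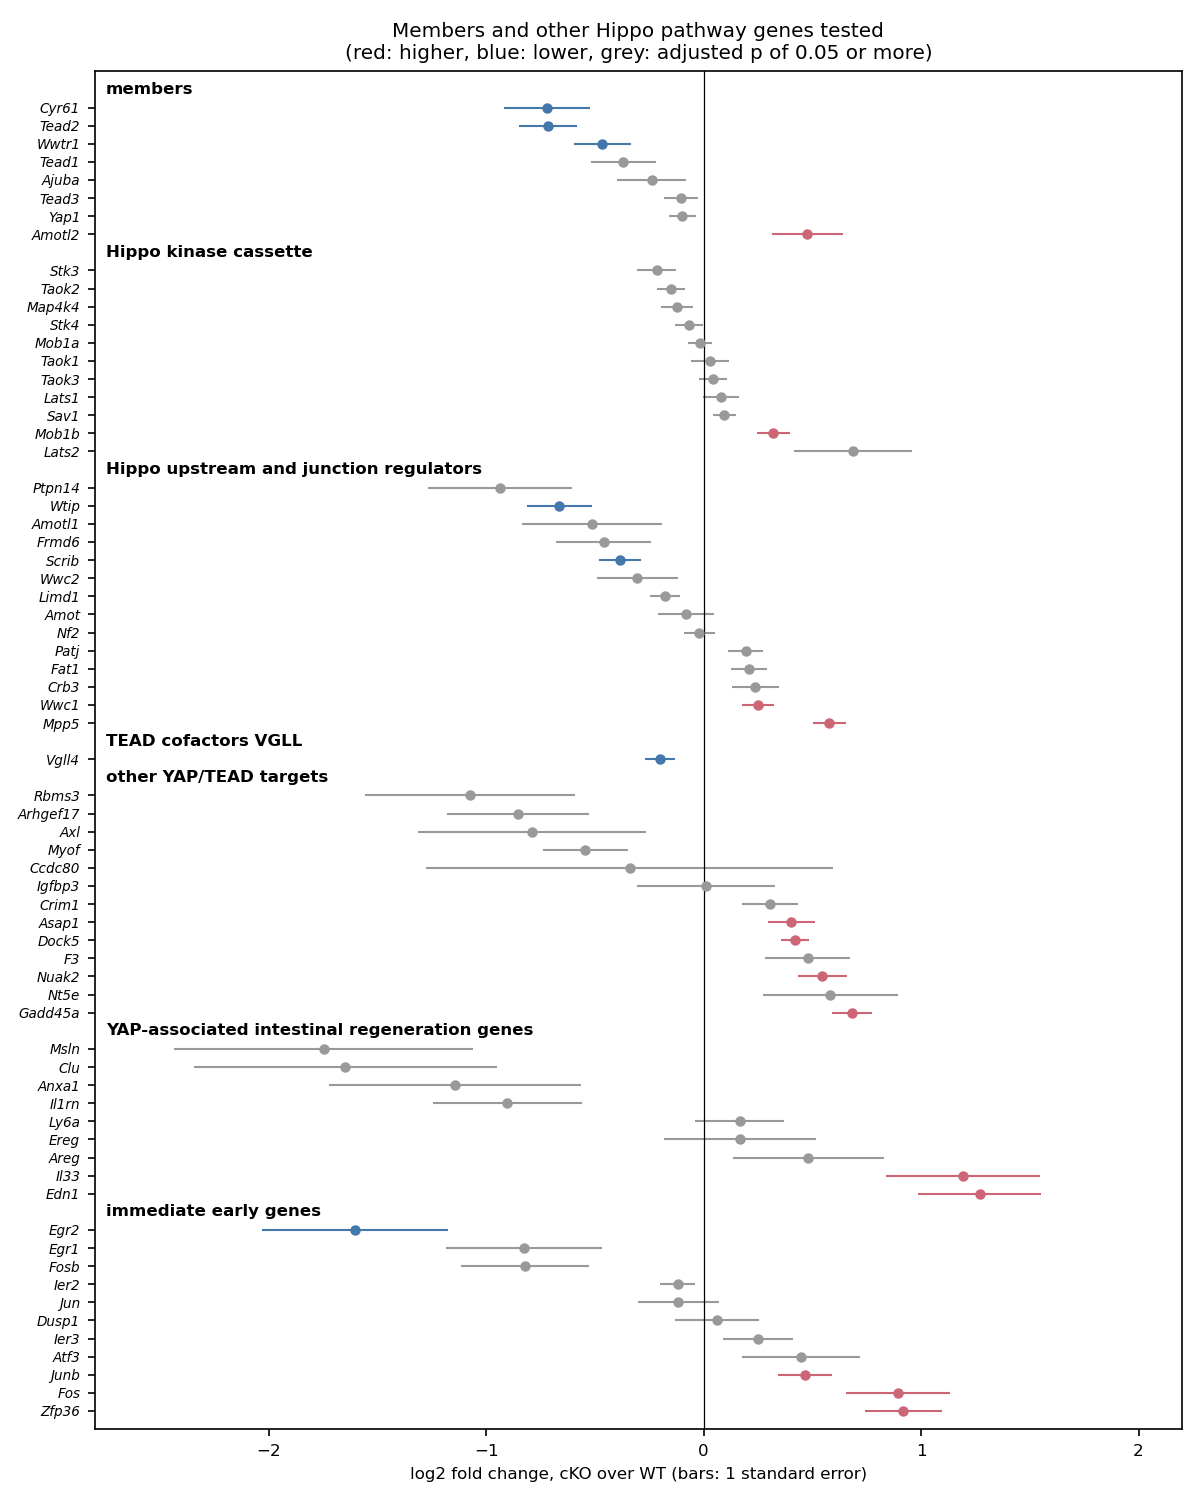
Log2 fold change (cKO over WT) with its standard error on the x axis for the 8 tested members and the 59 tested genes of the 6 other lists on the y axis. Red marks genes called higher, blue genes called lower and grey genes not called. Cyr61, Tead2 and Wwtr1 lie on the lower side, and Gadd45a, Nuak2, Dock5 and Asap1 of the further targets on the higher side.

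Of 10 genes associated with YAP in the regenerating intestine, 9 were tested and 2 were higher (22.2% called, beside 28.3% of all genes). The median log2 ratio was 0.17, and 5 genes had a positive and 4 a negative log2 ratio. Edn1, the gene of endothelin 1, was low and rose from 0.543 ± 0.153 to 1.31 ± 0.450 CPM (log2 ratio 1.27, adjusted p 0.00722 in edgeR). Il33, the gene of an alarmin cytokine, rose from 4.58 ± 1.71 to 10.5 ± 4.16 CPM (1.19, 0.0306), with overlap. The call of Il33 held in 9 of 22 alternatives, and was lost without any 1 of WT replicates 3, 4 and 5 or cKO replicates 1, 2, 4 and 5. Il1rn and Msln had log2 ratios of -0.90 and -1.75 and were not called (adjusted p 0.0658 and 0.0808). Clu, the most abundant of the list in WT, was at 15.5 ± 8.49 CPM in WT and 4.92 ± 5.52 in cKO, with overlap. In cKO its median was 2.45 CPM and its highest animal was at 14.8 CPM. It was not called (log2 ratio -1.65, adjusted p 0.108 in edgeR). Il1rn was called lower without WT replicate 2 (adjusted p 0.0421), with library totals alone (0.0344), with the effective length (0.0369) and on log2(TPM + 0.5) (0.0175). Msln was called lower in DESeq2 (0.0235), without WT replicate 4 (0.0153), without cKO replicate 4 (0.0330) and without WT replicates 3 and 4 together (0.0373). On log2(TPM + 0.5) the list had 1 gene higher and 2 lower. Without cKO replicate 4 it had 1 higher and 3 lower, Msln among the latter.

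Immediate early genes, which can share regulation with YAP targets and respond to tissue dissociation, had 11 of 12 genes tested, with 3 higher and 1 lower (36.4% called, beside 28.3% of all genes). With library totals alone 2 were higher and 3 lower, and on log2(TPM + 0.5) 1 was higher and 2 were lower. Without cKO replicate 4, the animal with the highest sum of the list, 3 were higher and 3 lower. Zfp36, which promotes the decay of mRNAs, rose from 31.3 ± 6.71 to 59.1 ± 13.0 CPM (log2 ratio 0.92, adjusted p 0.00437), the AP-1 subunit Junb from 20.9 ± 2.34 to 28.8 ± 5.41 CPM (0.47, 0.0157) and its partner Fos from 16.7 ± 3.33 to 31.0 ± 10.9 CPM (0.89, 0.0195). The zinc finger factor Egr2 fell from 1.31 ± 0.611 to 0.426 ± 0.185 CPM (-1.60, 0.0161). The other 7 tested genes were not called. The call of Fos was lost with the effective length (0.72, adjusted p 0.0552) and on log2(TPM + 0.5) (0.53, 0.174), and that of Junb with library totals alone (0.34, 0.0512) and on log2(TPM + 0.5) (0.35, 0.0649). The sums of the list were 167.6 to 215.7 CPM in WT and 181.3 to 298.7 in cKO. Their deviations within genotype had r of 0.63 with Amotl2 and 0.33 with Cyr61. The summed immune markers had r of 0.64 with Amotl2 and -0.07 with Cyr61. Whether handling of the tissue or the content of immune cells had a part in the levels of Amotl2 was not tested.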

How the data were processed

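RNA-seq was available for crypts of 5 WT and 5 Arid3a cKO animals. The authors ran nf-core/rnaseq (STAR alignment, RSEM quantification, Ensembl genes on GRCm38) and deposited for each animal the expected count, effective length, TPM and FPKM of each gene, without normalization of the expected counts between animals. The strand setting is not given in the sources used here, so overlapping genes on opposite strands may share reads. FPKM, as deposited by the authors, was not used.

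Rounded expected counts were fitted with edgeR 4.0.16 under R 4.3.3 (filterByExpr with minimum count 10 and total count 15, TMM, robust quasi-likelihood test, Benjamini-Hochberg adjustment over 14719 genes, threshold 0.05). The study's own model was DESeq2 with genotype and time, and all animals here share 1 time. Levels are TMM-normalized CPM, mean ± SD over animals, and TPM serves only to compare genes per length or as an alternative. Counts of 0 to 3 were treated as the floor, which covers counting error only. On simulated counts with the real means, edgeR called 64 of 100 genes changed by 1 and 36 of 100 changed by 0.5 on the log2 scale, with 6 false calls. The simulation changed far fewer genes than the 4167 called in the data. The adjusted threshold therefore differed, and these rates do not give the power of the reported fit. No pair of libraries was close to identical.

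Alternatives were DESeq2 1.42.0, RLE factors, library totals alone, unrounded counts, no filter, a filter of 10 counts in each library, effective length as an offset, limma-voom and limma 3.58.1 on log2(TPM + 0.5) and log2(TPM + 0.1), the replicate number as a block, each animal left out in turn, and WT replicates 3 and 4 left out together. The members and the gene lists were chosen with earlier results of these data known. Named genes were Arid3a, the members, up to 4 genes per pathway list with the lowest adjusted p, up to 2 markers per cell type with the highest mean CPM, and the 3 genes most alike in pattern to Yap1 and to Cyr61. Ctgf had too few counts for the last. Cd37, Cdh5, Kdr, Tie1, Col1a1, Col1a2, Pdgfra and Clu were named outside this rule after their values were seen. Likeness is the Pearson r of log2 CPM (pseudocount 0.5) after the genotype mean was subtracted.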

Additional observations from a re-analysis of the deposited data

Results flagged for a closer look

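In 52 groups of 5 animals (each listed gene or summed marker list in 1 genotype), 4 had a highest or lowest animal whose gap to the next, divided by the range of the group, was above Dixon's critical value of 0.71. Chance marks about 1 in 20 such groups.

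Ajuba was at 3.37 CPM in cKO replicate 4, while the other cKO animals lay between 2.54 and 2.77 CPM. Ctgf was at 0.136 CPM in the same animal, cKO replicate 4, from 4 counts, and at 0 in the others. The summed fibroblast markers were 158.8 CPM in cKO replicate 4 as well and 19.4 to 40.0 in the other cKO animals, and the summed immune markers of that animal were 173 CPM, beside 45.6 to 112.7 CPM in the others. The summed Paneth markers were 21430 CPM in WT replicate 3 and 13550 to 15640 CPM in the other WT animals.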

How the results depend on the processing

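All 8 tested Hippo genes kept their sign in the 22 alternatives. Of the 176 refitted values, 150 stayed on the same side of the threshold, 18 lost the call and 8 gained it. The count of 4 called Hippo genes ranged from 2 to 4 when 1 animal was left out, was 6 with library totals alone and was 1 without WT replicates 3 and 4 together, where Tead2 alone passed. That fit has 3 WT animals, called 2143 genes in all (1472 higher and 671 lower, against 4167) and 10 of the other pathway genes (against 16). Left out 1 at a time, the animals gave 3007 to 4684 called genes in all and 13 to 23 pathway genes.

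No pairing by replicate number was seen, since the deviations of same-numbered animals correlated at -0.21 to 0.09 and 0 of 10 animals correlated best with their own number. These correlations also carry differences in cell content between animals, and cannot show that the animals were unpaired. With the replicate number as a block, 3052 genes, 4 Hippo genes (Tead1 gained, Amotl2 lost) and 16 other pathway genes were called.

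Among markers and likeness genes that were not called, some signs turned. Krt8 was -0.064 with library totals alone, -0.031 on log2(TPM + 0.5) and -0.031 on log2(TPM + 0.1), and -0.0068 without both WT replicates. Col3a1 was 0.081 with the effective length, and between -1.75 and 0.30 with 1 animal left out. Tagln lay between -0.23 and 0.094 with 1 animal left out and was 0.32 without both WT replicates. Fcgbp was -0.027 with library totals alone and Slc12a2 was 0.040 without both WT replicates. The cause was not tested. Depth limited Tead4 and Ctgf, and left Cyr61, Amotl2 and Ajuba at 33 to 190 counts in each library.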
